A study of Mus musculus with 4 samples.

Results

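The 10 genes described here are 5 genes of the germ line (Tex19.1, Tex19.2, Dazl, Sycp3 and Mael) and 5 genes of the DNA methylation machinery (Dnmt1, Uhrf1, Dnmt3a, Dnmt3b and Dnmt3l). They were chosen from the difference between stimulated and control arrays in these same data, as germline genes usually silenced by DNA methylation, some of which differed strongly, together with the genes of methylation. They are 10 of the 18193 genes with a probe set of exactly 1 gene symbol, and 19 of the 34945 such probe sets. The contrast between the groups is therefore given for the members as a description, with no p-value. Counts of members past the threshold of the fit over all genes are given with the share or number of all genes past it, and support nothing.

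All 4 samples were HL-1 cells, a mouse atrial muscle cell line that contracts in culture, grown to confluence in supplemented Claycomb medium. The stimulated group (2 samples) received electric pacing of 300 beats per minute over 24 h, a rate that the labels put at 1.5 to 2 times that of controls. The control group (2 samples) beat spontaneously without stimulation. No group was paced at the control rate, so a faster rate and the electric stimulation itself cannot be told apart. HL-1 is a single line, and the labels do not state separate cultures within a group. The p-values therefore rest on the spread among these 4 samples, part of which may be technical. Each sample was hybridised to 1 Affymetrix array, and values are log2 levels made with RMA, which corrects background, equalises the distributions of the arrays and summarises the probes of a set.

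DNA methyltransferases add methyl groups to cytosines that precede a guanine (CG dinucleotides). DNMT3A and DNMT3B set new marks, DNMT3L stimulates them without an activity of its own, and UHRF1 brings DNMT1 to newly copied DNA so that the marks are kept through cell division. In somatic tissue a set of germ cell genes with CG-containing promoters is held silent largely by this methylation, and Tex19.1, Dazl, Sycp3 and Mael are often used as its reporters. Tex19.1 and Tex19.2 are duplicated rodent genes of a mammalian family expressed in germ cells, pluripotent cells and, for Tex19.1, placenta, where the protein is linked to the control of retrotransposons. DNA methylation was not measured in these samples.

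The promoters of the Tex19 genes and of Dazl are shown because they are the sequences on which such silencing would act, and because the CG content of the Tex19 promoters differed widely. Each run is the 250 bases before the gene start in RefSeq, assembly GRCm38.p6, written 5′ to 3′ on the strand of the gene, with CG dinucleotides in capitals. The windows are chr11:121145893-121146142 on the plus strand for Tex19.1, chr11:121118678-121118927 on the minus strand for Tex19.2, and chr17:50293621-50293870 on the minus strand for Dazl.
Tex19.1: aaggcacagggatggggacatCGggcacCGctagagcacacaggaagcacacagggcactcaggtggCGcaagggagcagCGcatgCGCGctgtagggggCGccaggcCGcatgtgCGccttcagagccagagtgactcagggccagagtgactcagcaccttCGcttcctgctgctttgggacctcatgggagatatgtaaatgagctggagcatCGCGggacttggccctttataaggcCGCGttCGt
Tex19.2: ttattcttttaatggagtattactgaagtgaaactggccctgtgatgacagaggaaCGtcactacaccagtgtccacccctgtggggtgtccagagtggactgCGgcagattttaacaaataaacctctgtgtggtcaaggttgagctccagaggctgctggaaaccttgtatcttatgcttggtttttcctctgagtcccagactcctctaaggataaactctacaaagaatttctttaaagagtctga
Dazl: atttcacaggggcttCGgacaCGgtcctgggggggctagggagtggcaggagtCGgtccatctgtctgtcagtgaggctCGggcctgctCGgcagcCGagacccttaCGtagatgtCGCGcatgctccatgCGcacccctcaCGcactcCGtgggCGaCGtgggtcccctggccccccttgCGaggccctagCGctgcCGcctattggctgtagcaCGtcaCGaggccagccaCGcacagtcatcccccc

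The Tex19.1 window held 15 CG dinucleotides, more than 72.7% of the 32851 promoter windows of 27025 genes in the same table. The Tex19.2 window held 2, more than 18.8% of windows. Its ratio of observed to expected CG was 0.163, against 0.643 in the Tex19.1 window and 0.710 in that of Dazl. The Dazl window held 20 CG, the Mael window 18 and the Sycp3 window 12, while the median of all windows was 6 with quartiles of 2 and 16. The 2 Tex19 genes lie head to head on chromosome 11, with 27466 bases between their starts, so each window belongs to 1 of them alone. Among the germline members, Tex19.2 had the window poorest in CG. Whether CG content in this window has a part in the group differences was not tested. Among the methylation genes, the Dnmt3b window held 21 CG, more than 83.7% of all windows.

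**Figure D1:**
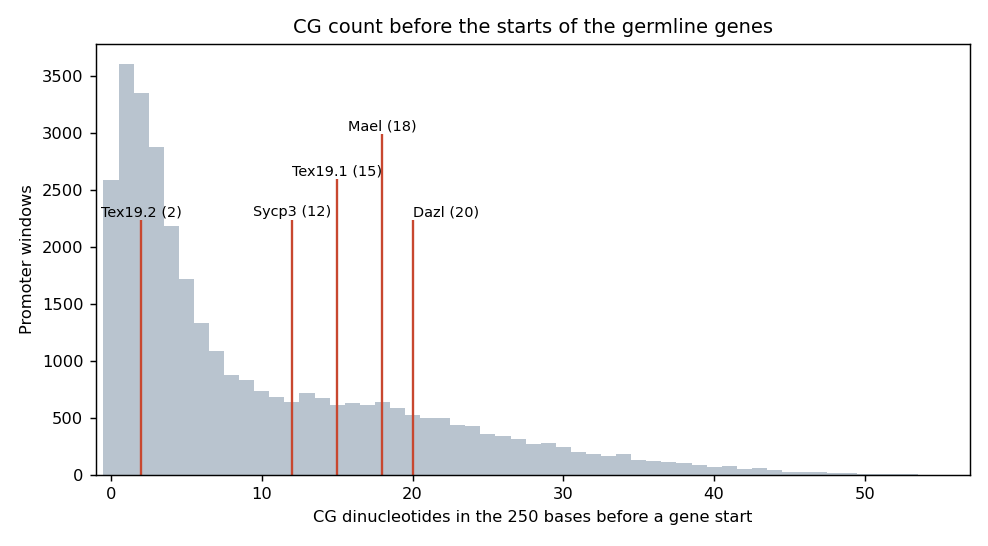
Number of promoter windows (vertical axis) by the number of CG dinucleotides in the 250 bases before a gene start (horizontal axis), for 32851 windows; red lines mark the 5 germline members. Tex19.2 lies at 2, at the lower quartile of all windows, and the other 4 lie between 12 and 20.

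Motifs were searched on both strands of these windows. The E-box CACGTG, present in 6.02% of all windows, was found 2 times before Sycp3 (64 to 59 and 43 to 38 bases before the start) and in 1 place before Mael (223 to 218). It was also found in a window of Dnmt3a (80 to 75) and of Dnmt3l (44 to 39). The E2F motif GCGGGAA, in 3.82% of windows, was found before Sycp3 (147 to 141) and in a window of Uhrf1 (48 to 42). The windows of Tex19.1, Tex19.2 and Dazl held neither of these. They also held no cAMP response element TGACGTCA (1.55% of all windows), no amino acid response element searched as TGATGNAA (3.45%), and no heat shock element core in the phase GAANNTTC (6.69%) or in the phase TTCNNGAA (7.17%). Both phases were found, overlapping, in 1 of the Dnmt1 windows (99 to 92 and 94 to 87). The motif TGACTCA, bound by JUN and FOS factors, was added after the Tex19.1 window had been read. It occurs there 2 times, 117 to 111 and 101 to 95 bases before the start, in no other member window, and in 4.46% of all windows. Each match is a description of the letters and not of a bound site.

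Tex19.1 was measured by 1 probe set, 1417482_at. Its levels were 4.79 and 4.31 on the control arrays and 9.19 and 9.94 on the stimulated arrays. Both control values lay close to the filter level of 4.39, the 40th percentile of all probe sets below which a gene was not tested, and both stimulated values lay far above it. The means were 4.55 ± 0.34 and 9.56 ± 0.53 (SD, n = 2 each), a difference of 5.01 ± 0.28 (log2, SE of the limma fit), or 32.3-fold on the RMA scale. Control 2 lay below the filter level, where RMA compresses differences, so this fold may be understated. The lowest stimulated value exceeded the highest control value by 4.40. A level from bulk RNA cannot tell more transcript per cell from more cells that hold it.

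Tex19.2, also measured by 1 probe set (1460274_at), had levels of 4.99 and 4.62 on the control arrays and 6.90 and 7.26 on the stimulated arrays. The groups were separated by 1.91, and the difference of 2.27 ± 0.19 was 4.83-fold, smaller than that of its paralog. Control 2 was the lower control array and stimulated 2 the higher stimulated array for both genes. Whether either probe set also binds the transcript of the other paralog was not tested.

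**Figure D2:**
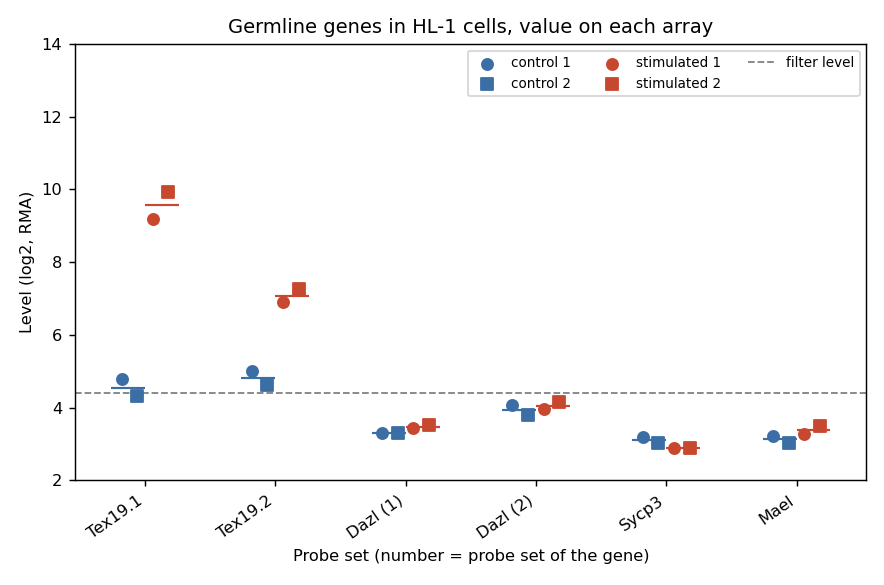
Level (log2, RMA) of each germline member probe set on the 4 arrays; blue symbols are control arrays, red symbols stimulated arrays, short lines the group means, and the dashed line the filter level of 4.39. Tex19.1 and Tex19.2 separate by 4.40 and 1.91, while the probe sets of Dazl, Sycp3 and Mael lie below the line on every array.

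The other germline members did not share this pattern. Dazl, an RNA-binding protein of germ cells, had levels of 3.30 and 3.30 in controls and 3.43 and 3.52 in stimulated cells with probe set 1419542_at. With 1449502_at they were 4.06 and 3.78 against 3.95 and 4.14, and the groups overlapped. Sycp3, a lateral element protein of the meiotic synaptonemal complex, had levels of 3.19 and 3.02 against 2.90 and 2.87. Mael, a piRNA pathway protein that protects the germ line from transposons, had levels of 3.21 and 3.03 against 3.26 and 3.50. The groups did not overlap in Dazl 1419542_at (gap 0.13, stimulated higher), Mael (0.05, higher) and Sycp3 (-0.12, lower). Groups did not overlap in 48.5% of all probe sets with 1 symbol. All 4 probe sets were below the filter level on all 4 arrays and were not tested, and their differences ran from -0.21 to 0.26. RMA compresses differences in this range too, so a small difference at these levels may not be detectable.

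Of the maintenance genes, Dnmt1 had 3 probe sets. The brightest by mean level, 1435122_x_at, had 10.63 and 10.73 in controls and 10.93 and 10.77 in stimulated cells, a difference of 0.17 ± 0.14 with a gap between the groups of 0.04. The probe set 1422946_a_at, at 10.77 and 10.69 against 10.84 and 10.73, overlapped between groups, and 1447877_x_at, at 8.90 and 8.96 against 9.25 and 9.17, differed by 0.28 ± 0.13. Uhrf1 had 11.04 and 10.67 against 10.88 and 10.46 with 1415810_at, a difference of -0.18 ± 0.20 with overlap. Its other probe set, 1415811_at, at 10.10 and 10.33 against 9.74 and 9.71, gave -0.49 ± 0.14 without overlap, so the 2 Uhrf1 probe sets differ in size. Both genes were well above the filter level on every array.

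Among the genes that set new marks, Dnmt3b stood apart from the rest. The probe set 1449052_a_at had 6.71 and 6.87 in controls and 7.69 and 7.43 in stimulated cells, a difference of 0.77 ± 0.15, or 1.71-fold, with a gap of 0.56. The other Dnmt3b probe set, 1418351_a_at, had 6.44 and 6.52 against 6.88 and 6.69, a difference of 0.31 ± 0.14 in the same direction. The larger value therefore depends on the probe set read.

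Dnmt3a had 5 probe sets, whose differences ran from -0.50 to 0.27. The one used for the gene, 1460324_at, had 8.24 and 8.18 in controls and 7.85 and 8.08 in stimulated cells, a difference of -0.25 ± 0.14 without overlap. The others were 1423063_at at 7.83 and 7.97 against 7.39 and 7.93, 1423064_at at 6.27 and 6.76 against 6.59 and 6.98, and 1423065_at at 6.60 and 6.60 against 6.21 and 6.75, each with overlapping groups. In 1423066_at control 1 alone was high, at 7.66 against 6.39 in control 2 and 6.60 and 6.44 in stimulated cells. Dnmt3l had 4.12 and 4.14 against 4.30 and 4.19, below the filter level on all arrays, and was not tested.

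**Figure D3:**
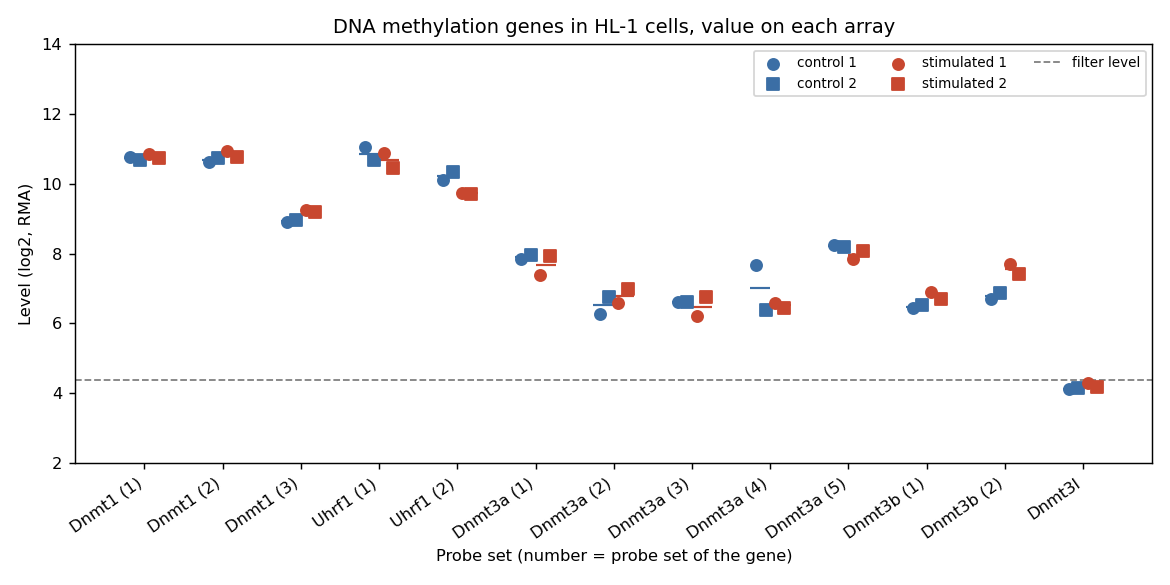
Level (log2, RMA) of each DNA methylation member probe set on the 4 arrays, with colours and lines as for the germline members. The 3 Dnmt1 and 2 Uhrf1 probe sets lie well above the filter level in both groups, the stimulated arrays of both Dnmt3b probe sets lie above the control arrays, and Dnmt3l lies below the filter level.

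Across the members, 14 of 19 probe sets and 6 of 10 genes passed the filter. The count of member genes past the threshold of the limma fit over all 13058 genes was 3 upward (Tex19.1, Tex19.2 and Dnmt3b) and 0 downward. Among all genes tested the share was 5.53% in either direction (722 genes), 3.91% higher and 1.62% lower, so that 70.6% of calls were higher, or 55.3% with arrays centred on the median of the genes tested. At the level of probe sets 3 of 14 members were past it, and 4.85% of all probe sets tested. The groups did not overlap in 12 of 19 member probe sets, 9 higher and 3 lower, and in 48.5% of all probe sets with 1 symbol. With the mean of all probe sets of a gene, the count of member genes was 2 (Tex19.1 and Tex19.2). Because the members were chosen on this contrast, these counts are no test of them and nothing is read from them. The count of member genes was 1 without control 2 and 2 without any other array, and that of member probe sets was 0 without control 2, 1 without control 1 and 2 without either stimulated array. The calls over all genes fell too with each array left out, from 722 in the main fit. Leaving the Tex19 genes aside, the member probe sets had differences between -0.50 and 0.77.

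Other germline genes were examined in 4 lists with 101 genes, 92 of them with a probe set. Of these 92, 51 (55.4%) were below the filter level on all 4 arrays, against 25.2% of all genes with a probe set. Of the 35 tested, 1 rose and 0 fell, with a median difference of -0.10 where that of all genes tested was -0.01. By list, 1 of 7 piRNA and germ granule genes, 0 of 8 meiosis genes, 0 of 12 germ cell fate genes and 0 of 8 spermatid genes passed. An unadjusted p under 0.05 was seen for 2 of the 35 (5.71%), against 25.6% of all genes tested. These shares are not matched for level. Several of the 35 lay close to the filter level, where RMA compresses differences. Examples are Asz1 (means of 4.47 in controls and 4.49 in stimulated cells), Zpbp (4.34 and 4.46) and Rec8 (4.42 and 4.64). Others, such as Tdrd7 (9.55 and 9.04), lay far above it.

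The germline gene that rose was Gtsf1, a zinc finger protein needed for piRNA function in male germ cells. Its levels were 7.12 and 7.15 in controls and 8.31 and 8.45 in stimulated cells, a difference of 1.25 ± 0.13 (limma, adjusted p = 0.0158). A second probe set, 1452967_at, had 5.31 and 5.56 against 7.71 and 7.40, a difference of 2.12. Unlike Dazl, Sycp3 and Mael, Gtsf1 was above the filter level in control cells. Mov10l1, a piRNA helicase, had 7.04 and 7.16 against 4.70 and 6.07, a difference of -1.72 ± 0.42 that did not pass (adjusted p = 0.0699), with the stimulated arrays far apart. It passed without stimulated 2, while Gtsf1 did not pass when any 1 array was left out (differences of 1.18 to 1.32, adjusted p = 0.0512 to 0.118). The Gtsf1 window before the gene start held 7 CG, more than 53.7% of all windows.

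The remaining germline genes with the smallest p in their lists had small differences and did not pass. They were Tdrd7 (-0.50) among the germ granule genes, and Prdm9 (0.32), Rec8 (0.21) and Psmc3ip (-0.16) among the meiosis genes. In the germ cell fate list they were Brdt (-0.32), Tex14 (0.42) and Nanos1 (-0.35), and in the spermatid list Odf2 (-0.29), Gapdhs (-0.31) and Acr (-0.22). Over the 51 germline genes below the filter level on every array the differences ran from -0.29 to 0.38.

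Another 6 germline genes were above the filter level on 1 or 2 arrays but had too low a mean to be tested. Taf7l, a germ cell paralog of a general transcription factor subunit, had 3.68 and 3.48 in controls and 4.73 and 4.36 in stimulated cells, a difference of 0.96 without overlap. It is named after its values were seen, and after Gtsf1 it had the largest difference upward in the germline lists. Ldhc, the lactate dehydrogenase of sperm, had 4.47 and 4.61 against 3.97 and 4.25 (-0.43, no overlap). The other 4 (Majin, Nanog, Odf1 and Smc1b) had differences from -0.07 to 0.14.

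Genes acting with or against the methyltransferases were examined in 4 lists. Of all genes tested, 25.6% had an unadjusted p under 0.05. Of 7 DNA demethylation genes tested (2, or 28.6%, at an unadjusted p under 0.05), 0 rose and 1 fell. That gene was Tet1, an enzyme that oxidises methylated cytosine, with 7.55 and 7.57 in controls and 6.81 and 6.90 in stimulated cells, a difference of -0.70 ± 0.12 (limma, adjusted p = 0.0374); its other probe sets gave -1.27, -0.83 and -0.0090. Neil1, a glycosylase of base excision repair, differed by 0.57 and missed the threshold (adjusted p = 0.0504), as did Xrcc1, a repair scaffold (-0.24).

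Of 8 methyl-CpG binding genes (2, or 25%, at an unadjusted p under 0.05) 1 rose, with a median over the list of 0.00. This was Mbd1, a methyl-CpG binding repressor, with a difference of 0.92 ± 0.14 (limma, adjusted p = 0.0317) in the probe set used and -0.03, 0.26 and 0.60 in its others. With the mean of all its probe sets the Mbd1 difference was 0.42 and did not pass (adjusted p = 0.159). Mbd3 (-0.41) and Uhrf2, the paralog of Uhrf1 (0.30), did not pass. Of 19 methylation cofactor and heterochromatin genes (7, or 36.8%, at an unadjusted p under 0.05) 1 rose (list median 0.16). This was Morc3, a nuclear ATPase linked to silencing, at 9.34 and 9.36 against 10.09 and 10.02 and a difference of 0.71 ± 0.12 (limma, adjusted p = 0.0357). Its other probe sets gave 0.35 and 0.55, and with the mean of all 3 the call was lost (0.54, adjusted p = 0.0557). Hells (0.57) and Suv39h2 (0.64) did not pass, and a second Hells probe set ran the other way (-0.27), while the others of Suv39h2 gave 0.37 and -0.05.

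E2F6 and the PRC1.6 complex repress many germline genes in somatic cells. Of 13 genes of this group tested (3, or 23.1%, at an unadjusted p under 0.05), 1 rose and 0 fell (list median 0.20). This was Pcgf6, the subunit that defines PRC1.6, at 8.59 and 8.69 in controls and 9.57 and 9.42 in stimulated cells, a difference of 0.85 ± 0.13 (limma, adjusted p = 0.0300); its other probe sets gave 0.94 and 0.93. E2f6 differed by 0.46 (limma, adjusted p = 0.0855) and Wdr5 by 0.37, and neither passed. Another E2f6 probe set gave 0.05 and another of Wdr5 gave 0.49.

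The methyl donor of DNA methylation comes from the methionine cycle. Of 11 methionine and SAM cycle genes tested (5, or 45.5%, at an unadjusted p under 0.05), 0 rose and 1 fell. Mtr, methionine synthase, had 8.32 and 8.25 in controls and 7.21 and 7.56 in stimulated cells, a difference of -0.90 ± 0.16 (limma, adjusted p = 0.0382), with -0.41 in its other probe set and no call with the mean of both (-0.65, adjusted p = 0.0529). Ahcyl2 (0.84) and Srm (0.71) did not pass. Of 6 genes of ubiquitin ligases, the partner class of TEX19 proteins, and of conjugating enzymes, 0 passed (1, or 16.7%, at an unadjusted p under 0.05). The smallest p was that of Ubr4 (0.54 ± 0.12, limma adjusted p = 0.0605). Ubr1 differed by 0.26 and Ube2b, a conjugating enzyme that works with them, by 0.35, with 1.27 in another Ube2b probe set.

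Imprinted genes, whose expression from 1 parental allele depends on methylation, were split in direction. Of 14 tested, Phlda2 rose by 1.11 ± 0.20 (limma, adjusted p = 0.0383) and Nap1l5 fell by 1.28 ± 0.25 (adjusted p = 0.0442), with a list median of -0.20. Mest differed by -1.28 (limma, adjusted p = 0.0515) and did not pass. Over this list 5 of 14 (35.7%) had an unadjusted p under 0.05. Of 20 S phase genes, with which Dnmt1 and Uhrf1 are known to be coexpressed, 0 passed (3, or 15%, at an unadjusted p under 0.05), the nearest being Mki67 (-0.56, adjusted p = 0.0770), Ccne1 (-0.38) and Rrm2 (-0.40). Another Ccne1 probe set gave -0.66, and the others of Rrm2 gave -0.82 and -0.46.

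Over all lists, markers included, 12 of 151 genes tested passed, 7 higher and 5 lower, beside the 5.53% of all genes tested. Without control 1 or without stimulated 1, 1 listed gene passed (Nppa, an atrial marker), without control 2, 2 passed, and without stimulated 2, 5 passed. Of the 12 genes, Nppa alone passed in all 4 of these fits.

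**Figure D4:**
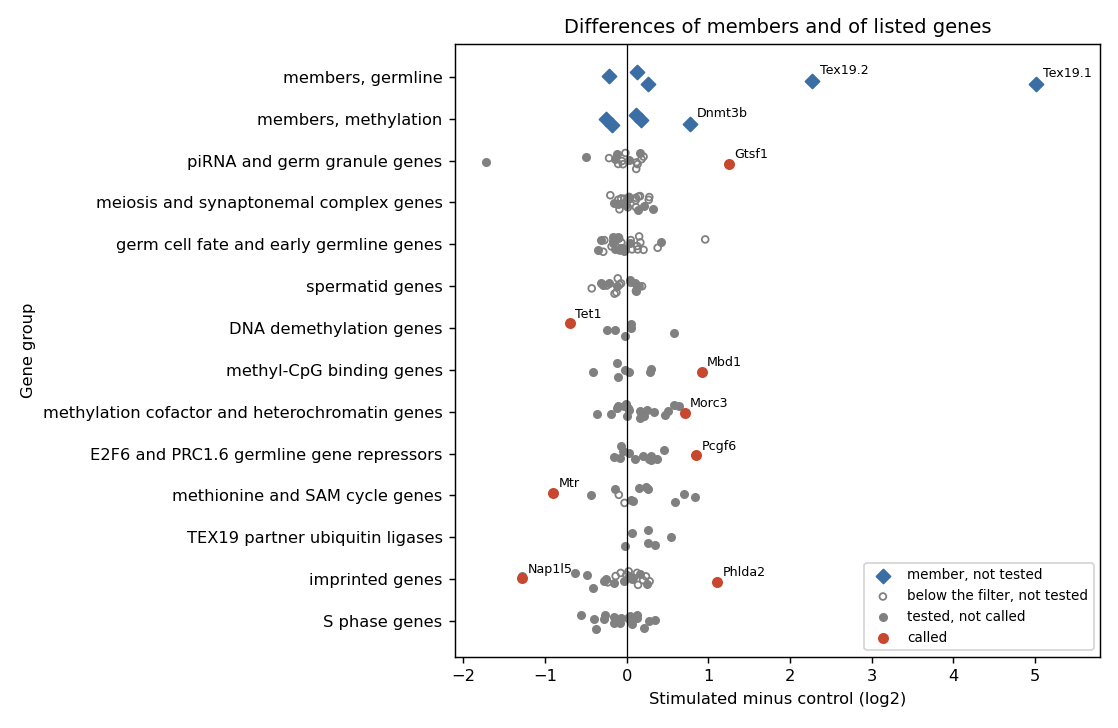
Difference between stimulated and control arrays (log2, horizontal axis) of each gene by group (vertical axis); blue diamonds are the members, grey open circles genes below the filter, filled grey circles genes tested and not past the threshold, and red circles genes past it. Tex19.1 (5.01) and Tex19.2 (2.27) lie to the right of all listed germline genes, of which Gtsf1 (1.25) is the only one past the threshold.

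The genes around the members were tested because they were not used in choosing them. The 10 nearest genes of the Tex19 pair with a probe set, 5 on each side in RefSeq order, included 9 tested, of which 0 rose and 1 fell. The nearest on either side were Sectm1a (0.08 ± 0.15, limma adjusted p = 0.800) and Uts2r (0.08 ± 0.23, adjusted p = 0.878). The gene that fell was Narf, the farthest on the Tex19.1 side, at 8.11 and 8.20 in controls and 6.73 and 6.95 in stimulated cells, a difference of -1.32 ± 0.14 (limma, adjusted p = 0.0166). Slc16a3, a lactate transporter at the other end, differed by -1.80 ± 0.44 and did not pass (adjusted p = 0.0720).

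Around Dazl, 0 of 7 genes tested passed. Around Sycp3, 1 of 7 fell (Parpbp, -0.66 ± 0.12, limma adjusted p = 0.0419), and around Mael, 1 of 9 rose (Creg1, 0.84 ± 0.12, limma adjusted p = 0.0294). Over the 40 neighbours, 32 were tested and 3 passed, 1 upward and 2 downward, where 5.53% of all genes tested passed (3.91% upward and 1.62% downward). Only Narf passed without stimulated 2 (-1.43), and 0 neighbours passed without control 1, control 2 or stimulated 1. With arrays centred on the median of the genes tested, 5 passed.

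**Figure D5:**
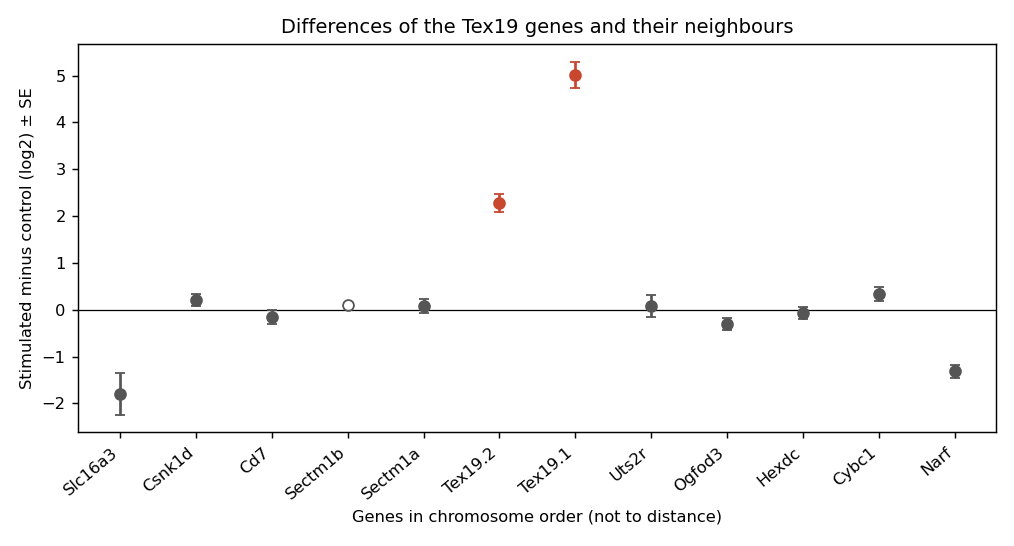
Difference between stimulated and control arrays (log2 ± SE of the limma fit) for the Tex19 genes (red) and the 5 genes with a probe set on either side (grey; open for Sectm1b, not tested), in chromosome order and not to distance. The adjacent genes Sectm1a and Uts2r both lie at 0.08, beside 2.27 and 5.01 for the Tex19 pair.

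The genes most like Tex19.1 were found by the distance between the 4 values of a gene, each less the gene's control mean. They are given as a description over 4 arrays. They were Hspa1b, an inducible heat shock protein of the HSP70 family (distance 0.30), Ryr1, the ryanodine receptor of skeletal muscle (0.66), Atf3, a stress-induced transcription factor (1.83), Acta1, skeletal alpha actin (2.01), and Fgf21, a stress-induced hormone (2.19). Their differences were 5.19, 4.55, 3.82, 3.62 and 3.53, beside 5.01 for Tex19.1. This distance follows the size of the difference. The largest rise in the germline lists was 1.25, so no listed germline gene could be among the 5, and nothing is read from their absence. Ryr1, like Tex19.1, was close to or below the filter level in controls, at 4.19 and 3.69, and reached 8.12 and 8.86 in stimulated cells. The genes most like Dnmt1 were Npm1, Plxna1, Usp15, Etv4 and Ep400, with distances from 0.0149 to 0.0311 and differences from 0.17 to 0.18. None of these passed in the limma fit and Dnmt1 itself differed by only 0.17, so nothing is read from this likeness.

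The 10 atrial muscle markers were above the filter level on every array, but 9 of the 10 were lower in stimulated cells. The list median was -0.61 where that of all genes tested was -0.01, and 7 of 10 had an unadjusted p under 0.05. Their summed levels did not overlap, at 111.73 to 113.16 in controls and 105.41 to 109.55 in stimulated cells, and the part of this in the member differences was not tested. Of the markers Nppa rose by 2.00 while Tbx5 fell by 1.51 and Gata4 fell by 0.74 (limma, adjusted p = 0.00561, 0.0269 and 0.0382). Another Tbx5 probe set gave -0.78 and another of Gata4 gave -1.21. Sln, sarcolipin (-1.78, adjusted p = 0.1), Myh6, alpha myosin heavy chain (-1.03, adjusted p = 0.0998), and Actn2, alpha actinin (-0.77, adjusted p = 0.0802), did not pass in the limma fit. All 5 germ cell markers (Ddx4, Dazl, Dppa3, Pou5f1 and Sycp1) were below the filter level on every array, with summed levels of 17.96 to 18.96 in controls and 18.32 to 18.57 in stimulated cells. Of the leukocyte markers, Cd68, a lysosomal protein of macrophages, rose by 2.08 (4.07 and 4.70 against 6.34 and 6.59, limma adjusted p = 0.0187). Its control mean of 4.3864 lay just below the filter level of 4.3888, so Cd68 was tested only through its stimulated values. Ptprc, the pan-leukocyte marker, was below the filter level on every array. Of the 5 leukocyte markers 1 of 4 tested passed, with summed levels of 23.52 to 24.67 in controls and 25.86 to 26.22 in stimulated cells, and their part in the Tex19 difference was not tested. The other leukocyte markers named by the rule, Cd3e (0.07) and Lyz2 (-0.07), did not pass. Of the fibroblast markers 0 of 3 tested passed (0 at an unadjusted p under 0.05), with sums of 26.06 to 28.32 against 25.86 to 27.15, and of the endothelial markers 0 of 1, with sums of 20.89 to 21.28 against 20.61 to 20.83. These were Dcn (-0.17), Pdgfra (-0.15) and Col1a1 (-0.22) for fibroblasts and Kdr (-0.29) for endothelium.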

How the data were processed

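The authors deposited 1 table of log2 values, made with RMA per the submitters' processing notes; the version and settings of RMA are not given in the sources used here. Scanner output was not used here. Array medians ran from 4.95 to 5.01 and single values from 2.34 to 14.29, and the number of arrays (4) limits the precision. Of 45101 probe sets, 64 were controls, 34945 had 1 gene symbol in the platform annotation, 932 had several and 9160 had none; none was named from several. RefSeq (GRCm38.p6) held the gene ID of 34741 of the probe sets with 1 symbol, and all 10 members.

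Each gene was read from its probe set of highest mean, and genes with a mean of at least 4.39, the 40th percentile, were tested (13058). The group difference was fitted in R 4.3.3 using limma 3.58.1 (two-sided moderated test from lmFit with eBayes). P-values were adjusted by Benjamini-Hochberg over all genes, or over 23284 probe sets, at a threshold of 0.05. The script was tested on simulated data. An exact test of 2 against 2 arrays cannot go below 0.333.

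The members and the 16 lists were chosen with earlier results of these data known. Named are all members and probe sets, the 3 listed genes of smallest p per list (more where called), called neighbours, and the 5 genes nearest to Tex19.1 and to Dnmt1. Protein sequences were not analysed here. Alternatives were another filter, centring, a trend in eBayes, a replicate block, the mean of all probe sets and leaving out each array.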

Additional observations from a re-analysis of the deposited data

How the results depend on the processing

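The Tex19.1 difference stayed between 4.64 and 5.39 and that of Tex19.2 between 2.09 and 2.46 with each array left out in turn, a range that follows from the spread of the 2 arrays per group. They were 5.03 and 2.29 with arrays centred on their medians, and 4.95 and 2.21 with arrays centred on the median of the genes tested. Member genes past the threshold (3) fell to between 1 and 2 with an array left out, and member probe sets to between 0 and 2. The Dnmt3b difference ran from 0.64 to 0.90 with an array left out and was 0.54 with the mean of its probe sets. With that mean Dnmt3b was no longer past the threshold, and Mbd1 (0.42), Morc3 (0.54) and Mtr (-0.65) lost their calls. Dnmt3b also lost the threshold with any 1 array left out. In the fit of probe sets it was lost with no filter, with a trend, and with arrays centred on the median of the genes tested. Tex19.2 differed by 2.09 without control 2 and lost the threshold there. The Uhrf1 difference ran from -0.40 to 0.0307 with an array left out, turning to 0.0029 without control 1 and to 0.0307 without stimulated 2. Listed genes past the threshold numbered 12, 22 with the replicate block, and 1 to 5 with an array left out. Neighbours past it numbered 3, 6 with the 60th percentile filter, 5 with a trend, 8 with the replicate block, 5 with arrays centred on the median of the genes tested (chosen after seeing the data), and 0 to 1 with an array left out. That centring shifted the median of all genes by 0.06 and lowered the share of called genes that were higher from 70.6% to 55.3%. Over all genes 722 passed, 1345 with the block, and 40, 20, 70 and 113 without control 1, control 2, stimulated 1 and stimulated 2. Whether replicate numbers pair the samples was not settled: the labels number both stimulated samples, a protocol text names 1 control as number 2, the other control's number is by accession order, and same-numbered deviations correlated at 0.334 across genes. Of 208 alternatives for single genes, 146 kept direction and side of the threshold, 60 kept direction and lost the threshold, and 2 turned direction, both for Uhrf1. The cause of these changes was not tested; with an array left out, fewer samples enter the fit and the lone sample of a group is taken to vary like the other group.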
